A study of Rattus norvegicus with 6 samples.

Results

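Synpo2 and 9 genes of the smooth muscle contractile programme were followed in rat heart muscle cells in culture. The members were Synpo2, Actg2, Acta2, Myh11, Cnn1, Tagln, Mylk, Lmod1, Smtn and Myocd, each taken as the row of the gene count table that carries its symbol. In addition, 7 unannotated rows (transcripts assembled from the reads, with no gene name) that overlapped 7 of these genes on the same strand were included, giving 10 of 32883 annotated genes and 7 of 10152 unannotated rows. The genes were selected on their counts and fold changes in this same comparison, so their values are given as a description, without p-values, and a count of calls among them supports nothing.

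The cells were primary cardiomyocytes from hearts of Sprague-Dawley rats at postnatal day 1. They received either scramble siRNA (si-NC) or siRNA directed at the kinase DYRK1A (si-DYRK1A), and RNA was collected after 48 h, with 3 biological replicates in each group. The 6 libraries held 10325074 to 11921772 counts. The level of Dyrk1a could not be used to check the labels, since its own row held 0 to 3 counts per library. An unannotated row across it showed no fall, at 77.7 ± 3.22 CPM (counts scaled to a common library size) in si-NC and 82.4 ± 2.70 CPM in si-DYRK1A (SD, n = 3). The 3 libraries of the treated group are therefore called by their label only. The paper did report a check of the knockdown at the protein level, by immunoblot of neonatal cardiomyocytes 48 h after transfection (6 samples per group).

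Smooth muscle cells shorten when myosin slides along actin filaments. Acta2 and Actg2 encode the smooth muscle actins, Myh11 the smooth muscle myosin heavy chain, and Mylk the kinase that switches myosin on. Cnn1 (calponin), Tagln (transgelin), Lmod1 (leiomodin) and Smtn (smoothelin) encode proteins that bind these filaments, and Synpo2 (myopodin) encodes an actin-bundling protein of the Z-disc and of stress fibres. Myocardin, the product of Myocd, is a cofactor of serum response factor (SRF), which binds a DNA element called the CArG box, and is present in heart as well as smooth muscle. Several smooth muscle genes are also known to be active in immature or stressed cardiomyocytes and in fibroblasts that turn into myofibroblasts.

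Because the CArG box is the element through which SRF and myocardin act, promoters of the members were searched for it on either strand. Promoter sequences were those of RefSeq on the rat build GRCr8, from 250 bases before to 50 bases after the start site, and 6 members had an entry (Synpo2, Actg2, Acta2, Cnn1, Mylk and Smtn). Myh11, Tagln, Lmod1 and Myocd had none. The exact box was found in 548 of 33469 promoters (1.64%) and in 0 of the 6 members. A looser form, with 1 G or C allowed among the 6 central A or T bases, was found in 2712 promoters (8.1%), and 1 member, Acta2, held it, at 2 positions. Those windows are given here with the exact boxes of Srf, which encodes SRF itself, and of the muscle actin genes Actc1 and Acta1, whose products closely resemble those of Acta2 and Actg2. Capitals mark the box. Each window is 30 bases long.
Acta2, chr1:241172618-241172647, minus strand: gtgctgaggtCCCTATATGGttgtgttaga
Acta2, chr1:241172568-241172597, minus strand: tgtctttgctCCTTGTTTGGgaagcgagtg
Srf, chr9:21923985-21924014, plus strand: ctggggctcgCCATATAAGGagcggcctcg
Srf, chr9:21924005-21924034, plus strand: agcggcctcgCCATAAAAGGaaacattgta
Actc1, chr3:121271806-121271835, minus strand: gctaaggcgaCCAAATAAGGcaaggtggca
Acta1, chr19:68784269-68784298, minus strand: tgcccaacacCCAAATATGGcttgggaagg

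The boxes of Acta2 began 134 and 84 bases before its start site, those of Srf 81 and 61 bases before, and that of Acta1 94 bases before. The windows of Actg2 and Mylk lay around start sites 10340 and 36876 bases inside their genes, so they were not at the outer end of either gene. The matches describe these letters only, and the count data below do not report on binding.

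Synpo2 was higher in si-DYRK1A, Myocd and Actg2 were slightly higher, Cnn1 overlapped between the groups, and Tagln had too few counts to place. The remaining 5 members (Acta2, Myh11, Mylk, Lmod1 and Smtn) had between 0 and 1 count in their own rows over all 6 libraries. Thus 5 of the 10 members passed the filter on low counts. Of these 5, 3 were called higher and 0 lower by edgeR's quasi-likelihood test at an adjusted p below 0.05, against 15.2% of all 15513 features tested (8.03% higher and 7.19% lower). The libraries of the 2 groups did not overlap for the same 3 genes, as was the case for 31.5% of all features. Since the comparison was used to choose the genes, nothing is read from these counts.

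Synpo2 (ENSRNOG00000014867) lies on the minus strand at chr2:227255902-227411964 of the rat build Rnor_6.0, on which the count table is placed. Its normalized levels were 336.2, 328.7 and 295.1 CPM in the si-NC libraries and 619.7, 553.3 and 576.7 CPM in the si-DYRK1A libraries. All 3 si-DYRK1A libraries lay above all si-NC libraries, and the gap between the groups was wider than the spread inside either. The means were 320.0 ± 21.9 CPM and 583.3 ± 33.7 CPM (SD, n = 3), a 1.82-fold difference, or a log2 fold change of 0.87 with a standard error (SE) of 0.0528 and a 95% confidence interval of 0.76 to 0.98. In order of falling log2 fold change the gene ranked 324 among the 15513 features (586 when falls of the same size are counted too), and it rested on deep counts, from 3506 to 7046 per library. The log2 fold change stayed between 0.80 and 0.90 in all 18 alternative analyses. In these bulk libraries, a change in the number of cells of a type and a change in RNA per cell cannot be told apart.

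Myocd (ENSRNOG00000003669, chr10:51683540-51778986, minus strand) encodes the transcriptional cofactor of the programme. The si-NC libraries had 75.8, 82.2 and 68.5 CPM, and the si-DYRK1A libraries had 94.9, 90.4 and 91.7 CPM. The groups did not overlap, but the highest si-NC library and the lowest si-DYRK1A library were close. Means were 75.5 ± 6.87 and 92.4 ± 2.31 CPM (SD, n = 3), a 1.22-fold difference with a log2 fold change of 0.29 (SE 0.0632, 95% confidence interval 0.16 to 0.42). An unannotated row over 78.5% of the gene held 13 counts in all. The log2 fold change ran from 0.22 without si-NC replicate 3 to 0.36 without si-NC replicate 2.

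Actg2 (ENSRNOG00000029401, chr4:115215060-115239723, minus strand) encodes the gamma actin of visceral smooth muscle. It was at 183.4, 183.8 and 176.6 CPM in si-NC and at 196.5, 198.5 and 214.9 CPM in si-DYRK1A. Again the groups did not overlap, and replicate 3 of si-DYRK1A stood above the other 5 libraries. The difference was 1.12-fold, from 181.3 ± 4.05 to 203.3 ± 10.1 CPM (SD, n = 3), with a log2 fold change of 0.17 (SE 0.0478, 95% confidence interval 0.07 to 0.27). The log2 fold change ran from 0.12 without si-DYRK1A replicate 3 to 0.19 without si-DYRK1A replicate 1. Actins are near-identical in sequence, and how reads shared with Actc1, Acta1 or Acta2 were counted is not given in the sources used here, so the level of Actg2 is uncertain.

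Cnn1 (ENSRNOG00000027736, chr8:23113048-23121761, plus strand) encodes basic calponin, which holds back the actomyosin ATPase. It was at 555.9, 553.4 and 560.0 CPM in si-NC and at 551.8, 567.1 and 542.3 CPM in si-DYRK1A. The 2 groups overlapped, and the si-NC libraries lay within the range of the si-DYRK1A libraries. The log2 fold change was -0.01 (SE 0.0402), and the 95% confidence interval of -0.09 to 0.08 did not reach the value of Synpo2 or of Myocd. Its sign was not fixed, with values from -0.03 to 0.01 over the alternatives.

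Tagln (ENSRNOG00000017628, chr8:50222896-50231357, minus strand), which encodes transgelin, an early marker of smooth muscle differentiation, had 34, 26 and 33 counts in si-NC and 13, 16 and 29 counts in si-DYRK1A. The groups overlapped. The log2 fold change of -0.66 had an SE of 0.316 and a 95% confidence interval from -1.32 to just under 0, and it ran from -1.04 without si-DYRK1A replicate 3 to -0.43 without si-DYRK1A replicate 1. An unannotated row that covered 97.7% of Tagln and also ran over the neighbouring gene Sidt2 had 22, 35 and 26 counts in si-NC and 32, 35 and 32 in si-DYRK1A, which was the opposite direction. No direction is given for Tagln at this depth.

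**Figure D1:**
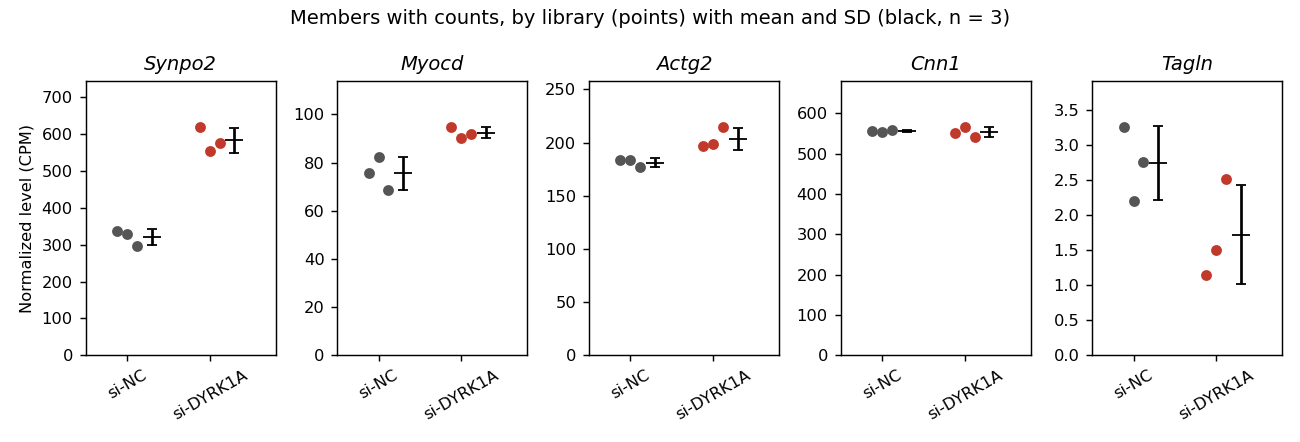
Normalized level in CPM (vertical axis, from 0, scaled for each gene) of the 5 members that passed the filter on low counts, with 1 point per library for si-NC (grey) and si-DYRK1A (red) and the mean with its SD in black (n = 3). Synpo2 sits at 295.1 to 336.2 CPM in si-NC and at 553.3 to 619.7 CPM in si-DYRK1A, whereas the groups overlap for Cnn1 and Tagln.

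Set side by side per length, in the deposited FPKM values (fragments scaled to gene length and library size), the order of the members in si-NC was Cnn1 at 368.7 ± 2.13, Actg2 at 126.9 ± 2.85, Synpo2 at 76.7 ± 5.19, Myocd at 14.7 ± 1.36 and Tagln at 2.17 ± 0.414 FPKM (SD, n = 3). Each neighbour in that order was separated by more than the spread of its libraries. Among 22250 protein-coding genes in si-NC, Cnn1 ranked 212, Actg2 670, Synpo2 1097 and Myocd 3359. In si-DYRK1A, Synpo2 was at 148.0, 132.3 and 137.7 FPKM and Actg2 at 137.0, 138.6 and 149.8 FPKM. The ranges of Synpo2 and Actg2 overlapped there, so their order in that group was not set, while Cnn1 was still the highest at 365.7 ± 8.60 FPKM and Myocd lower at 18.0 ± 0.441 FPKM.

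The rows of Acta2 (ENSRNOG00000058039), Myh11 (ENSRNOG00000057880), Smtn (ENSRNOG00000019451) and Lmod1 (ENSRNOG00000051548) held 0 counts in every library, and the row of Mylk (ENSRNOG00000002215) held 1 count, in si-DYRK1A replicate 2. Each of these 5 genes was covered by an unannotated row over 100% of its span after rounding. The unannotated row had the same start and end as the gene for Acta2 (chr1:252537615-252550394) and Smtn (chr14:83755142-83776863), and it too was at 0 in all 6 libraries. Therefore the main smooth muscle actin had no counts in either place.

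The unannotated row over Myh11 had 2, 3 and 5 counts in si-NC and 7, 3 and 3 in si-DYRK1A. That over Mylk had 8, 7 and 2 against 10, 8 and 6 counts, and that over Lmod1 had 2, 3 and 5 against 2, 2 and 0 counts. The ranges of counts overlapped in all 3 rows, although after scaling to CPM the si-NC libraries of the row over Lmod1 lay above the others. With 14 to 41 counts in all, these rows did not pass the filter. A level of 0 in these rows says what this table counted and not that the genes were silent.

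Low counts under an unannotated row were common in the whole table. Of 6885 protein-coding genes with at least 50% of their span under an unannotated row of the same strand, 77.2% stayed under 10 counts in all libraries, against 45.4% of the other 15365. Among the members, 5 of the 7 covered genes had so few and 0 of the 3 others (Synpo2, Actg2 and Cnn1). The part of the overlap in the low counts was not tested.

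**Figure D2:**
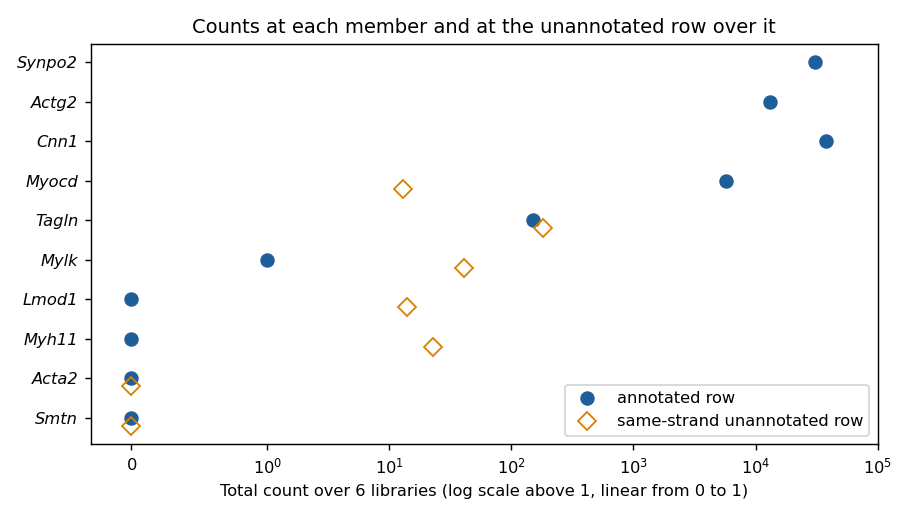
Total count over the 6 libraries (horizontal axis, logarithmic above 1 and linear between 0 and 1) in the annotated row of each member (filled circles) and in the same-strand unannotated row over it (open diamonds). Acta2 and Smtn are at 0 in both rows, and the unannotated rows of Mylk, Lmod1 and Myh11 hold 41, 14 and 23 counts.

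The genes around the members were taken from lists by function. These lists were drawn up with earlier results of these data known, so the shares called in them are a description. Tests are edgeR's quasi-likelihood test with Benjamini-Hochberg adjustment over all 15513 features. Of 25 genes for smooth muscle cytoskeleton and filaments, 15 had enough counts. Of these, 6 rose, 3 fell and 6 did not pass, which made 60% called, against 15.2% of all features. The median log2 fold change was 0.18, against 0.002 over all features.

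Among the genes that rose were several of adhesions and filament anchors. Itga8, the alpha subunit of an integrin of smooth muscle and myofibroblasts, rose from 245.8 ± 1.70 to 383.9 ± 8.45 CPM (SD, n = 3; log2 fold change 0.64, adjusted p = 1e-09 by edgeR). Synm (synemin, an intermediate filament protein) rose by 0.66 on the log2 scale, from 136.8 to 216.2 CPM (edgeR adjusted p = 1.2e-08). Actn1, the actin cross-linker alpha-actinin of non-sarcomeric cells, rose from 1219 to 1737 CPM (0.51 on the log2 scale, edgeR adjusted p = 2.15e-08). Csrp1 (a LIM protein of actin bundles) and Vcl (vinculin, of adhesions) each rose by 0.26 on the log2 scale, with edgeR adjusted p-values of 5.57e-05 and 0.000313. Tpm4, a non-muscle tropomyosin, rose by 0.16 (edgeR adjusted p = 0.00536), though not without si-DYRK1A replicate 3 (0.0594).

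In the same list, Aoc3, an amine oxidase of smooth muscle and fat cell membranes, fell from 23.3 ± 1.01 to 12.4 ± 1.66 CPM (SD, n = 3; log2 fold change -0.91, edgeR adjusted p = 6.55e-06). Des (desmin, the intermediate filament of muscle) fell by 0.15 (edgeR adjusted p = 0.0161), which was lost without si-NC replicate 1 (0.0679) or si-DYRK1A replicate 1 (0.0945). Hspb6, a small heat shock protein of muscle, fell by 0.33 (edgeR adjusted p = 0.0188), which was lost without si-NC replicate 1 (0.138) and without replicates 1 (0.083) or 2 (0.0642) of si-DYRK1A. Tropomyosin genes Tpm1 and Tpm2 and the myosin light chain gene Myl6 did not pass, at log2 fold changes of 0.00, 0.24 and 0.11, and all 3 lay largely under unannotated rows. The log2 fold changes of the 6 genes that rose, 0.16 to 0.66, stand beside the 0.87 of Synpo2.

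Of 20 regulators around SRF, 10 had enough counts, and 2 rose while 0 fell, which made 20% called, against 15.2% of all features. Srf itself rose from 54.3 ± 0.516 to 70.7 ± 8.63 CPM (SD, n = 3; log2 fold change 0.38, SE 0.0768, edgeR adjusted p = 0.00161), next to the 0.29 of its cofactor Myocd. Csrp2, which encodes a LIM protein that bridges SRF and GATA factors, rose from 157.4 ± 2.53 to 230.4 ± 3.53 CPM (0.55 on the log2 scale, edgeR adjusted p = 2.12e-08). Of the span of Srf, 89.1% lay under an unannotated row. The other SRF cofactor Mrtfa (listed as Mkl1) was at 80.6 and 76.2 CPM (log2 fold change -0.08, SE 0.0685, edgeR adjusted p = 0.489). Klf4, Foxo4 and Tcf21, which are known to restrain or compete with this programme, had log2 fold changes of -0.01, 0.02 and 0.14 and did not pass.

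Among 16 relatives of the members, 10 had enough counts, and 2 rose and 2 fell, which made 40% called, against 15.2% of all features. Myh10, a non-muscle myosin heavy chain, rose by 0.19 (edgeR adjusted p = 0.00207), and Smtnl2, a relative of Smtn, fell by 0.43 (edgeR adjusted p = 0.00122). Actc1, the cardiac actin, rose from 9976 to 10880 CPM (0.13 on the log2 scale, edgeR adjusted p = 0.0193), close to the 0.17 of Actg2. That call was lost without si-NC replicate 1 (0.0503), without replicates 2 (0.0564) or 3 (0.168) of si-DYRK1A, and with library size alone (0.0598). Actb, a cytoplasmic actin, fell by 0.18 (edgeR adjusted p = 0.0179), which was lost without si-NC replicate 2 (0.052), without replicates 1 (0.1) or 2 (0.0864) of si-DYRK1A and with limma-voom (0.127). The skeletal actin Acta1 (0.00), the calponins Cnn2 (-0.01) and Cnn3 (0.04) and the row named for the cytoplasmic actin Actg1 (-0.20) did not pass, and the sign of Acta1 changed with the scaling. The Actg1 row lies at chr3:75643054-75644954, and whether it is the gene or a copy of it was not tested. How reads shared between actins were counted is not given, so the levels of these actin genes are uncertain too.

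The SYNPO2 protein is known to work with the chaperone BAG3 in clearing damaged filamin. Of 11 genes of this chaperone-assisted autophagy, 8 had enough counts, and 0 rose and 2 fell, which made 25% called, against 15.2% of all features, at a median log2 fold change of -0.14. The 8 and their median include Hspa8, which was at -0.41 and did not pass (edgeR adjusted p = 0.601). It was read from the larger of 2 rows with that symbol (chr5:99031013-99033107). Whether that row is the Hspa8 gene or a copy of it was not tested. Flnc, the muscle filamin, fell from 1053 ± 108 to 832.6 ± 16.0 CPM (SD, n = 3; log2 fold change -0.34, edgeR adjusted p = 0.00371). Bag3 fell from 166.7 to 144.0 CPM (log2 fold change -0.21, edgeR adjusted p = 0.0126), which was lost without si-NC replicate 2 (0.0669) and without replicates 1 (0.0735) or 2 (0.0687) of si-DYRK1A. Both thus lay on the other side of 0 from Synpo2. Stub1, Hspb8, Vps18 and Vps33a had log2 fold changes of 0.13, -0.03, -0.07 and -0.02 and did not pass. In all 3 fits of limma on log2 FPKM the calls of Srf, Des, Hspb6, Actb, Flnc and Bag3 were lost. With no filter, limma on log2(FPKM + 1) also lost Vcl (adjusted p = 0.0766), Smtnl2 (0.0876), Myh10 (0.0518) and Actc1 (0.0531).

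**Figure D3:**
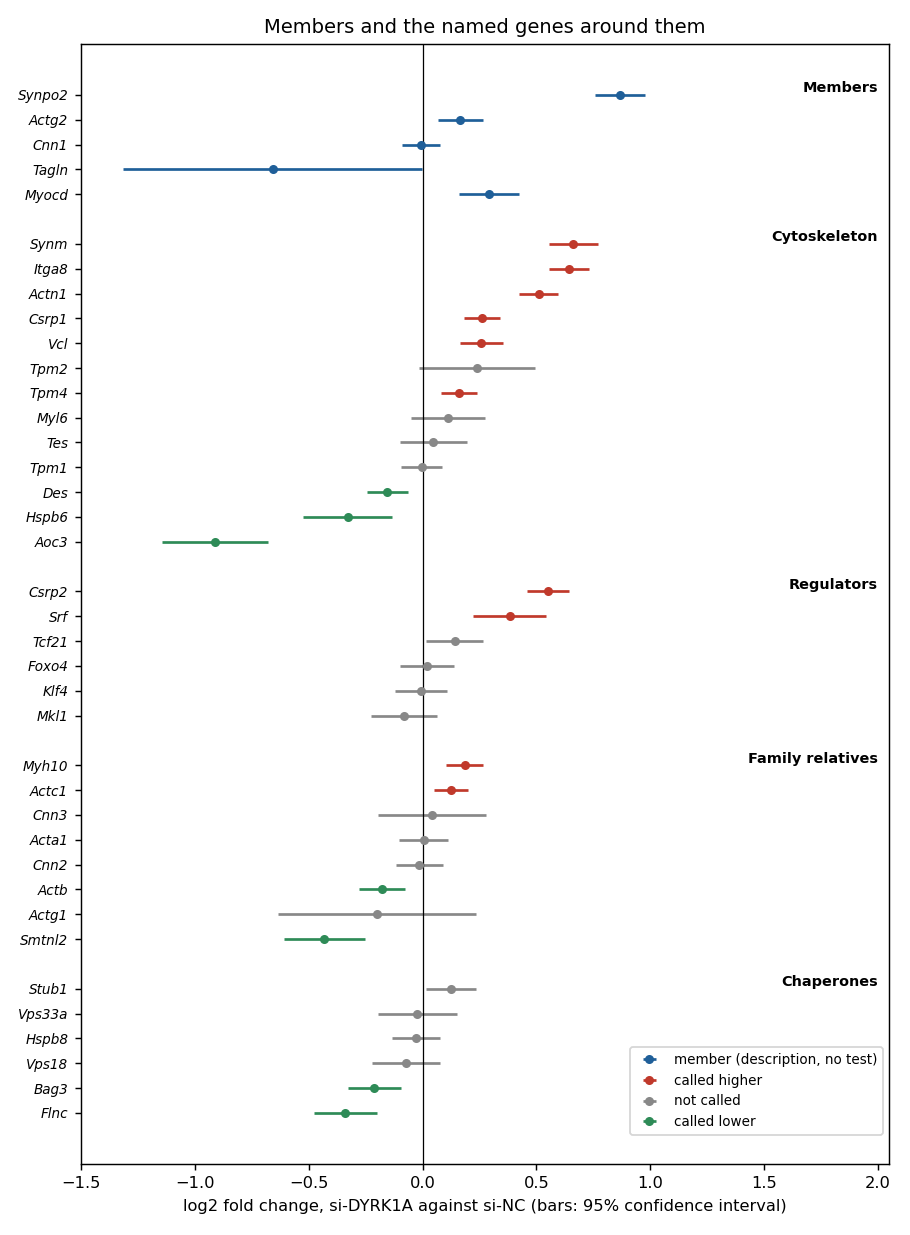
Log2 fold change of si-DYRK1A against si-NC (horizontal axis) with its 95% confidence interval for the 5 members with enough counts (blue, a description with no test) and the named genes of 4 lists, marked as called higher (red), called lower (green) or not called (grey). Synpo2 at 0.87 lies to the right of every other gene drawn, and Aoc3 at -0.91 is the furthest to the left.

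Members could also come from cells other than cardiomyocytes, so markers of 4 cell types were summed in each library. Only 5 cardiomyocyte, 7 mural, 8 fibroblast and 6 endothelial markers passed the filter on low counts. Several genes given below as above 0 thus held few counts. The cardiomyocyte list (7 of 11 matched genes above 0, among them Nppa, Actn2 and Pln) summed to 11160 to 12250 CPM in si-NC and 13570 to 14450 CPM in si-DYRK1A, a difference of 20.6%. Nppa made up 64.7% of the si-NC sum, and without it the list differed by 4.55% and the groups overlapped. Its defining markers Tnni3, Myh6, Myh7 and Myl2 were at 0, all under unannotated rows. The mural cell list (9 of 11 above 0), which marks vascular smooth muscle and pericytes, summed to 679.6 to 743.7 CPM and 755.6 to 780.1 CPM, a difference of 6.65%, with Abcc9 and Notch3 at 0. Mcam, at 500.2 and 505.4 CPM, made up 69.8% of it, and the rest of the list summed to 192.6 to 233.8 CPM and 257.0 to 261.7 CPM, a difference of 19.6%. The largest parts of that rest were Cspg4, at 146.5 and 160.5 CPM with overlapping groups, and Rgs4, at 46.1 and 68.5 CPM without overlap. The means of Ndufa4l2 and Pdgfrb were lower in si-DYRK1A, at few counts. The fibroblast list (9 of 11 above 0) overlapped between the groups, at 25630 to 30460 and 24960 to 25930 CPM, with Pdgfra and Ddr2 at 0. Without Col1a1, which went from 14340 to 11110 CPM, the difference of -8.56% became 6.33%. The endothelial list (6 of 6 above 0) summed to 164.2 to 180.1 CPM and 131.8 to 137.8 CPM, a difference of -22.3%. Tek made up 29% of the si-NC sum. Without it the list differed by -14.8%, at 113.2 to 129.7 CPM in si-NC and 103.0 to 106.7 CPM in si-DYRK1A.

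In each sum the two-sided exact permutation test of 3 against 3 libraries could not go below p = 0.1, which it reached for 3 lists, with p = 0.2 for fibroblasts (Benjamini-Hochberg adjusted over the 4 lists 0.133 and 0.2). Sums with no overlap between the groups were thus found for cardiomyocyte, mural and endothelial markers. Single markers moved both with and against Synpo2. Rgs4, of pericytes, rose by 0.57 on the log2 scale, and the fibroblast genes Lum, Postn and Vim rose by 0.59, 1.10 and 0.23, with edgeR adjusted p-values from 1.21e-08 to 0.000345. Postn was at only 6.54 and 14.0 CPM in its own row, and 99.8% of its span lay under an unannotated row. With the counts of that row added it rose by 0.95. The fibroblast genes Col1a1 (log2 fold change -0.37, edgeR adjusted p = 0.0869) and Fn1 (-0.07, 0.287) and the cardiomyocyte genes Myl3 (-0.11, 0.0878) and Tnnt2 (-0.14, 0.595) had negative values and did not pass. Of these, Fn1 and Tnnt2 had 99.9% and 100% of their span under an unannotated row, and Tnnt2 was at only 11.2 and 10.2 CPM. Nppa (atrial natriuretic peptide) and Actn2 (sarcomeric alpha-actinin) rose by 0.37 and 0.31 (edgeR adjusted p = 3.71e-06 and 4.58e-05), and Tek, an endothelial receptor, fell by 0.75 (3.5e-07), as did its relative Tie1 by 0.43 (0.00125). Cdh5 (endothelial cadherin) fell by 0.31 (edgeR adjusted p = 0.0129), which was lost without si-NC replicate 1 (0.0531) and without replicates 1 (0.0606) or 3 (0.0668) of si-DYRK1A. The call of Cdh5 was also lost in the 3 fits of limma on log2 FPKM (adjusted p from 0.0718 to 0.129). Those of Vim (0.0523) and Tie1 (0.0766) were lost in limma on log2(FPKM + 1) with no filter. The endothelial genes Kdr, Emcn and Egfl7 did not pass, at log2 fold changes of -0.01, 0.03 and -0.54. Their edgeR adjusted p-values were 0.954, 0.922 and 0.394. Pln (phospholamban, of cardiomyocytes) rose by 0.15 (edgeR adjusted p = 0.0471), which held in 5 of 18 alternatives. It was lost on leaving out any library but si-NC replicate 3 (adjusted p-values from 0.0551 to 0.217), with RLE (0.0544) or upper-quartile (0.0625) scaling, with library size alone (0.101), with DESeq2 (0.0802) and in the 3 fits of limma on log2 FPKM (0.198 to 0.319). The sums used the markers' own rows only, without the unannotated rows over them. The part of the cell types in the difference at Synpo2 was not tested.

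**Figure D4:**
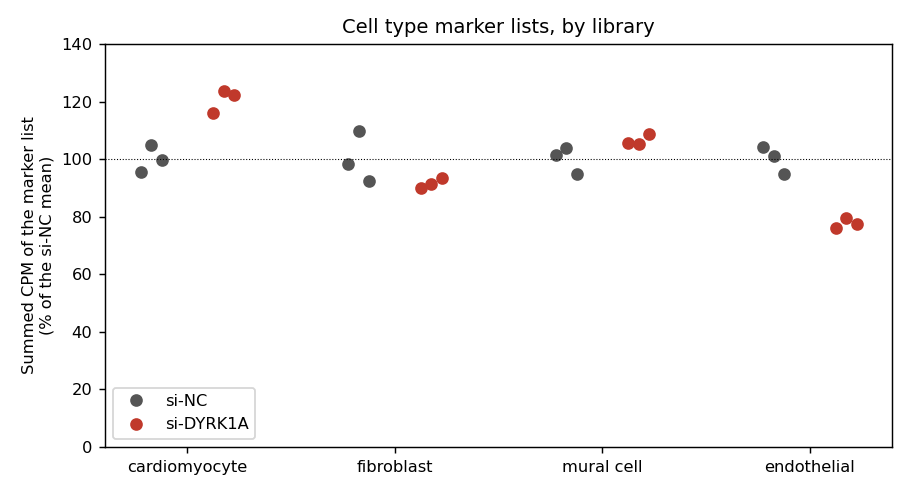
Summed CPM of each list of cell type markers, as a percentage of the si-NC mean of that list (vertical axis, from 0), with 1 point per library for si-NC (grey) and si-DYRK1A (red). The si-DYRK1A libraries lie above all si-NC libraries for cardiomyocyte and mural cell markers, below them for endothelial markers, and among or below them for fibroblast markers.

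The annotated genes most like Synpo2 over the 6 libraries were sought by the root mean square distance between centred log2 CPM profiles, among the 8191 genes whose log2 CPM averaged 1 or more. They were Ackr3 (a scavenging chemokine receptor, distance 0.054), Dqx1 (0.0593), Car2 (carbonic anhydrase, 0.0593), Il6 (a cytokine, 0.0603) and Clic6 (a chloride channel protein, 0.0639). Ackr3 was at 19.6, 21.2 and 19.0 CPM in si-NC and 37.0, 34.1 and 35.2 CPM in si-DYRK1A. Car2 was at 40.2, 41.5 and 38.4 CPM and at 73.0, 72.4 and 74.3 CPM. None of these 5 was on the lists for smooth muscle, SRF or cell types, and this likeness holds over 6 libraries only.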

How the data were processed

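RNA-seq was done on 6 libraries. According to the paper's methods, reads were aligned with HISAT2 to the rat build Rnor_6.0, whereas the submitters' processing notes name Bowtie and a mouse build. The sources used here name no counting tool and do not say whether strand was used. The authors deposited raw counts per gene, in which unannotated transcripts have rows of their own, and FPKM values. The counts were filtered with filterByExpr (minimum count 10), scaled by TMM and tested with edgeR 4.0.16 (quasi-likelihood, R 4.3.3, 15513 of 43035 rows). CPM used the same scaling. Libraries of a group differed by more than sampling noise (chi-square per degree of freedom 2.58 to 6.39). P-values weigh the difference between the groups against the spread between these samples. The members and gene lists were chosen with earlier results of these data known. The lists held 143 genes, of which 135 were found under their symbol, 1 under an earlier one and 7 not at all. The results of 1 list and 1 gene are not reported here. A symbol with several rows was read from the row with the most counts. Text names, for each list, up to 6 called genes by p-value and up to 4 others by level, and called genes beyond that. DESeq2 1.42.0, limma-voom and limma on log2 FPKM (limma 3.58.1) were alternatives. The fit was tested on simulated data with 200 changed features. There edgeR called 68% of changes of 1 and 37% of changes of 0.5 on the log2 scale, so small changes can be missed. Of its calls, 7.08% were false. The data gave 2360 calls, far more than the 200 changes simulated, so these shares need not hold for the data. The looser CArG form was added after the exact one had been searched.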

Additional observations from a re-analysis of the deposited data

How the results depend on the processing

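Limma on log2(FPKM + 1), on log2(FPKM + 0.1) and on log2(FPKM + 1) with no filter called 1199, 1180 and 591 features in place of 2360, and 1 member each in place of 3. In the same order, these called 1, 1 and 1 regulators around SRF (2 in the main analysis) and 0, 0 and 0 chaperone genes (2). With no filter, limma on log2(FPKM + 1) called 0 relatives of the members (4) and 6 cell markers (10). With unannotated rows added to the gene below them, 4 regulators were called. Leaving out 1 library at a time gave 1614 to 2210 features, 2 to 3 members (2 without replicate 1 or 3 of si-NC or replicate 3 of si-DYRK1A), 2 to 4 relatives, 1 to 2 chaperone genes and 8 to 12 cell markers; the low values came without si-DYRK1A replicate 2 for the relatives, and without si-NC replicate 2 or si-DYRK1A replicates 1 or 2 for the chaperone genes. The cause was not tested. The members were chosen on this comparison, so nothing is read from their calls. Without Col1a1, left out after the sums had been seen, the summed fibroblast markers differed by 6.33% in place of -8.56%. Genes that were not called changed sign when 1 library was left out, with log2 fold changes from -0.0434 to 0.0737 for Acta1, -0.0518 to 0.0251 for Cnn2, -0.039 to 0.156 for Cnn3, -0.0168 to 0.0552 for Foxo4, -0.0769 to 0.00417 for Hspb8, -0.0389 to 0.0388 for Klf4, -0.131 to 0.0112 for Mkl1, -0.00985 to 0.118 for Ppp1r14a, -0.0415 to 0.0207 for Tpm1 and -0.0863 to 0.0297 for Vps33a. Acta1 also did with RLE factors (-0.000334), DESeq2 (-0.000354), no count filter (-0.00448) and library size alone (-0.0211), and Foxo4 with library size alone (-0.00555).

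Replicate numbers are shared between the groups, but libraries with the same number did not deviate together (correlations from -0.0287 to 0.0535), so the number was taken as a name. With the replicate block, 2269 features and 3 members were called, with a log2 fold change of 0.87 for Synpo2, and the calls of Actc1 and Pln were lost.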

Other observations

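With the counts of unannotated rows added to the gene they cover by at least 50%, the genes of the lists were tested again by edgeR with Benjamini-Hochberg adjustment, and the genes given here were named after their values had been seen. Among those with too few counts in their own row, Rgs5, a marker of pericytes, rose by 0.56 on the log2 scale (adjusted p = 1.07e-05), Pdlim5, a Z-disc protein, by 0.17 (adjusted p = 0.00777), Zyx (zyxin, of adhesions) by 0.20 (adjusted p = 0.0456) and Fhl2, a LIM protein, by 0.31 (adjusted p = 0.0381). The mural marker Abcc9 was at -0.27 and did not pass (adjusted p = 0.23). Cald1, Flna, Kcnmb1, Nexn, Elk3, Elk4, Mef2c, Tgfb1i1, Tagln2, Vps11, Vps16, Thy1, Ddr2 and Myl2, also tested only in the sum, did not pass. Over all features, 2358 of 15074 were called in this fit, so no direction is read from the genes that rose. Prrx1, a mesenchymal homeobox factor, was not called from its own row (log2 fold change 0.71, adjusted p = 0.213) and rose by 0.43 in the sum (adjusted p = 3.89e-06). The mural marker Heyl, at 0.71 in its own row (adjusted p = 0.264), fell by 0.38 in the sum (adjusted p = 0.0106). Dcn (decorin, of fibroblasts) was at 0.25 (adjusted p = 0.332) in its own row and rose by 0.44 in the sum (adjusted p = 0.0409). An unannotated row can hold reads of more than the gene it covers, which was not tested. Acta2 and Smtn stayed at 0 counts under this sum.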
